A study of Mus musculus with 2 samples.

Results

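The genes described here encode the mouse receptors for the constant region of IgG and the proteins that carry or oppose their signal: the activating receptors Fcgr1, Fcgr3 and Fcgr4, the inhibitory receptors Fcgr2b and Sirpa, the receptors Trem1 and Trem2, the adaptors Fcer1g and Tyrobp, and the kinase Syk. They were chosen by name as a family, with earlier results of these data known, and all 10 symbols were found among the 55536 annotated genes of the deposited tables. RNA was measured in macrophages grown from the bone marrow of C57BL/6J mice, with no genetic change named in the labels, stimulated by lipid A (100 ng/ml) for 75 min. Lipid A is the part of bacterial lipopolysaccharide that Toll-like receptor 4 recognises. The RNA came from the chromatin fraction, where nascent and unfinished transcripts are enriched, and ribosomal RNA was depleted before total RNA sequencing. The series has 1 group of 2 libraries, labelled biological replicate 2, made from 500 ng of RNA, and biological replicate 1, made from 250 ng. The labels name a single donor for both and do not say if 2 mice were used, so each SD (n = 2) may describe cultures and not animals. No untreated cells were analysed here, so the values describe stimulated cells and give no response to lipid A, and no test was run.

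As background, activating Fc receptors bind antibody outside the cell but have, in the mouse, no signalling motif of their own. They pair with the adaptor chain Fcer1g, the common Fc receptor gamma chain, whose cytoplasmic tail holds an immunoreceptor tyrosine-based activation motif (ITAM). Trem1 and Trem2 pair in the same way with Tyrobp, also called DAP12. Src-family kinases phosphorylate both tyrosines of the ITAM, Syk docks on them through its paired SH2 domains, and phagocytosis and cytokine signalling follow. Fcgr2b and Sirpa instead carry an immunoreceptor tyrosine-based inhibitory motif (ITIM) that recruits phosphatases, and Sirpa reads CD47 on other cells as a signal not to engulf them.

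The coding sequence of the motifs named above is shown for the adaptors and the inhibitory receptors. The coding sequence of each member's transcript in GENCODE M21 was translated and searched for the ITAM pattern, a tyrosine followed at the third residue after it by a leucine or isoleucine, with the same unit repeated after a gap of 6 to 8 residues. The pattern occurred once in Fcer1g and once in Tyrobp, and in none of the other 8 genes. Each stretch is 45 bases long and is joined from 2 exons; it lies at residues 65 to 79 of the 86 of Fcer1g (mm10 chr1:171229889-171230072, minus strand, intron included) and at residues 92 to 106 of the 114 of Tyrobp (chr7:30415670-30417382, plus strand, intron included). The capitals mark the codons of the paired tyrosines.
Fcer1g ITAM: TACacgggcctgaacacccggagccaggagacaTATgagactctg
Tyrobp ITAM: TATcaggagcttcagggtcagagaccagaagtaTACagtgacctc
The ITIM pattern, a tyrosine with an isoleucine, leucine, valine or serine before it at the second residue and an isoleucine, leucine or valine after it at the third, occurred once in Fcgr2b, at residues 317 to 322 of 340 (chr1:170961071-170961088, minus strand). It occurred 3 times in Sirpa, at residues 438 to 443, 479 to 484 and 503 to 508 of 513 (chr2:129629954-129629971, chr2:129630077-129630094 and chr2:129630149-129630166, plus strand). The capitals again mark the tyrosine codon.
Fcgr2b ITIM: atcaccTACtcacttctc
Sirpa ITIM 438: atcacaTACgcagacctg
Sirpa ITIM 479: ctcaccTATgctgacctg
Sirpa ITIM 503: tcagagTATgctagtgtc
The short ITIM pattern also matched 3 times in Fcgr1 and once each in Fcgr4, Fcer1g and Tyrobp, so these patterns alone do not divide activating from inhibitory members. A match is a description of the letters and not a sign of phosphorylation.

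Levels are given in TPM (transcript abundance per length, scaled to a fixed total in each library), so a value is relative to everything else in the library. At a minimum of 1 TPM in both libraries, 7 of the 10 members were measured as expressed, against 17.4% of all annotated genes and 34.7% of protein-coding genes. Syk was the highest, with a mean of 534 ± 118 TPM (SD, n = 2) and rank 100 among all genes, followed by Sirpa, Fcgr2b, Fcer1g, Trem2, Tyrobp, Fcgr3, Fcgr1, Fcgr4 and Trem1. The order was the same in both libraries for 8 of the 9 neighbouring pairs; Fcgr1 and Fcgr4 changed places. The ranges of the libraries overlapped for 4 pairs, namely Fcgr2b with Fcer1g, Trem2 with Tyrobp, Tyrobp with Fcgr3 and Fcgr1 with Fcgr4. Of these, only Fcgr1 and Fcgr4 changed order between the libraries, and 2 libraries set the order of the others only loosely. The median of the 10 mean levels was 13.7 TPM, beside 8.18 TPM over the 7633 expressed protein-coding genes. The median over all 22028 protein-coding genes was 0.19 TPM. In both libraries the TPM of Syk and Sirpa lay above the interval deposited with it, and that of every other member lay inside. For Syk the interval was 589 to 601 TPM in replicate 2 and 427 to 437 TPM in replicate 1. For Sirpa it was 380 to 398 TPM in replicate 2 and 260 to 276 TPM in replicate 1.

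**Figure D1:**
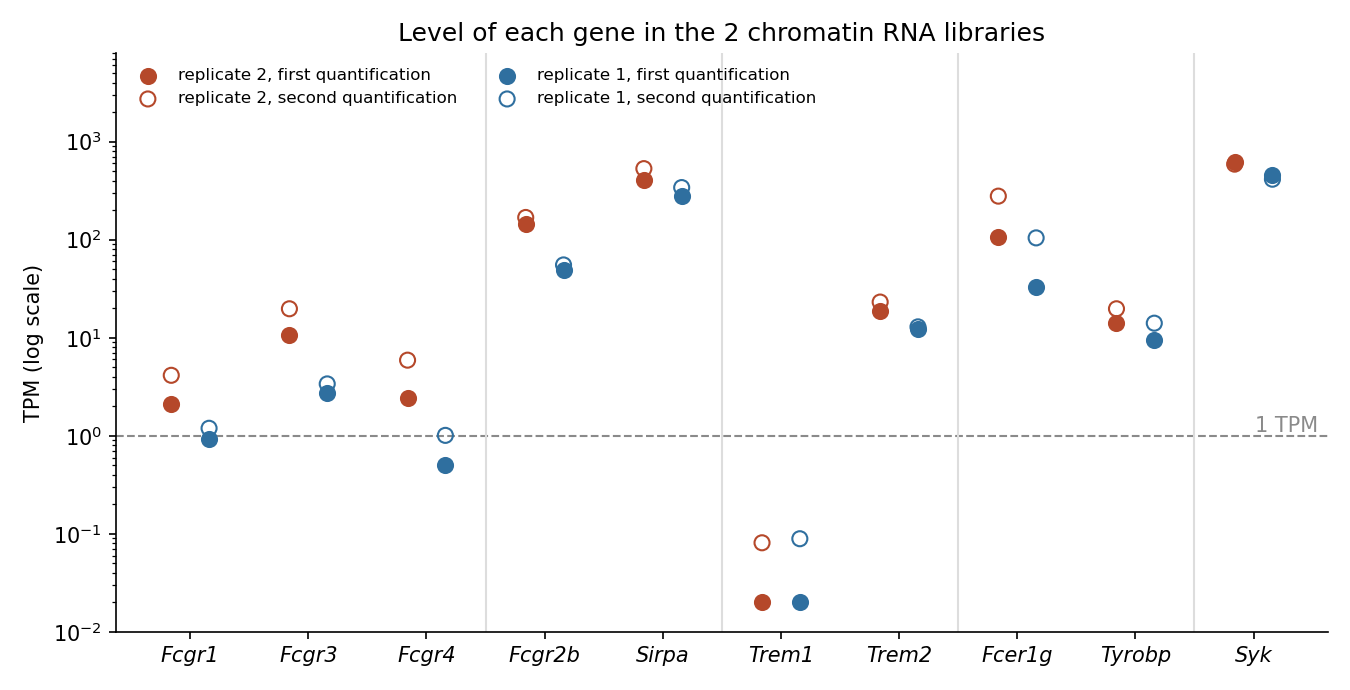
TPM of each gene (log axis) in replicate 2 (red) and replicate 1 (blue), by the first (filled) and the second (open) quantification; genes are grouped as activating receptors, inhibitory receptors, TREMs, adaptors and Syk. Syk and Sirpa sit at 278 TPM or more in both libraries, the activating receptors lie between 0.5 and 10.7 TPM by the first quantification, and Trem1 lies at 0.02 TPM in both.

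The activating receptors were the least abundant of the 4 IgG receptor genes. Fcgr3, a low-affinity receptor (mm10 chr1:171051174-171064935, minus strand), had 10.7 TPM in replicate 2 and 2.74 TPM in replicate 1. Fcgr1, the high-affinity receptor (chr3:96282909-96293969, minus strand), had 2.09 TPM in replicate 2 and 0.93 TPM in replicate 1, just under the minimum. Fcgr4, of intermediate affinity (chr1:171018920-171029761, plus strand), had 2.40 TPM in replicate 2 and 0.50 TPM in replicate 1. All of them were higher in replicate 2, and replicate 1 alone kept Fcgr1 and Fcgr4 under the minimum. Their precision is set by few reads: Fcgr4 had 78 counts in replicate 2 (exact 95% Poisson interval 61.7 to 97.3) and 15 in replicate 1 (8.40 to 24.7). Fcgr1 had 114 counts in replicate 2 (94.0 to 137) and 52 in replicate 1 (38.8 to 68.2). Such intervals cover counting error only.

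The promoters of Fcgr4 and Fcgr1 are shown because these are the receptor genes at the edge of detection; both receptors are known to be inducible by interferon in macrophages. RefSeq start sites on GRCm38.p6 gave windows of 250 bases before to 50 after the start for 8 of the 10 members, in 10 windows (Tyrobp and Sirpa had no entry). Short motifs, chosen with the sequences in view, were searched on both strands, and the capitals mark their matches, which do not overlap. In the Fcgr4 window (chr1:171018676-171018975, plus strand) these are GAAANNGAA, the core of an interferon-stimulated response element, first base 73 before the start, and AGGAAGT, a PU.1 and ETS core, first base 24 before the start and read on the opposite strand.
Fcgr4 promoter: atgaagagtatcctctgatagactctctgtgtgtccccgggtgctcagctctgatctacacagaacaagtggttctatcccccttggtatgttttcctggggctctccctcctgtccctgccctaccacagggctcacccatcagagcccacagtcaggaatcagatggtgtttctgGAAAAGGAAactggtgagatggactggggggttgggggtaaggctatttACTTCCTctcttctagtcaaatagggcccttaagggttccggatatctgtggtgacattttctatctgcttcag
In the Fcgr1 window (chr3:96293920-96294219, minus strand) they are TTCNNNGAA, the core of an interferon-gamma activated site, 109 before the start, and AGGAAGT, 61 before the start and on the opposite strand.
Fcgr1 promoter: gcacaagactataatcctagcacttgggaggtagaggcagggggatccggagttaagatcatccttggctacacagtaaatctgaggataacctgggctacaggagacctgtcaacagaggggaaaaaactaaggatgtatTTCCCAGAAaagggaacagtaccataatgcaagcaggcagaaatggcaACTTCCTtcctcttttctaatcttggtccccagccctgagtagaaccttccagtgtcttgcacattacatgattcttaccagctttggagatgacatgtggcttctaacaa
Of the 32851 RefSeq promoters of the same length, 8.56% held GAAANNGAA, 8.30% TTCNNNGAA and 9.35% AGGAAGT. Among the members, TTCNNNGAA and AGGAAGT also occurred in Trem1, the least abundant gene, and GGGNNTTTC, a half-site of NF-kB found in 4.36% of all promoters, occurred in Fcgr3. A match of this length is a description and not a bound site.

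The inhibitory receptors were both far above the activating ones. Fcgr2b, the only inhibitory Fc receptor for IgG in the mouse (chr1:170958617-170976547, minus strand), had 144 TPM in replicate 2 and 48.6 TPM in replicate 1. Sirpa (chr2:129592835-129632228, plus strand) had 403 TPM in replicate 2 and 278 TPM in replicate 1. Both were higher in replicate 2 on this scale, and the lower Fcgr2b value still exceeded every value of Fcgr1, Fcgr3 and Fcgr4. With TPM taken over protein-coding genes only, Sirpa was lower in replicate 2, at 1612 TPM against 1985 TPM in replicate 1. Fcgr2b stayed higher, at 577 TPM in replicate 2 and 348 TPM in replicate 1. The level of Fcgr2b was 9.47 times the sum of the 3 activating receptors in replicate 2 (15.2 TPM) and 11.7 times that sum in replicate 1 (4.17 TPM). On transcripts annotated as protein-coding alone, the excess was smaller, 2.75 times in replicate 2 and 1.84 times in replicate 1.

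Fcer1g was the more abundant adaptor. Fcer1g (chr1:171229572-171234365, minus strand) had 106 TPM in replicate 2 and 33.0 TPM in replicate 1. Tyrobp (chr7:30413760-30417585, plus strand) had 14.1 TPM in replicate 2 and 9.54 TPM in replicate 1. Fcer1g was thus 7.49 times Tyrobp in replicate 2 and 3.45 times in replicate 1, and the ranges of these genes did not overlap. Fcer1g also exceeded the summed activating receptors, 6.95 times in replicate 2 and 7.90 times in replicate 1. Syk, which binds the phosphorylated ITAM of either adaptor (chr13:52583173-52648792, plus strand), had 618 TPM in replicate 2 and 451 TPM in replicate 1, or 5.15 times the summed adaptors in replicate 2 and 10.6 times in replicate 1. By the second quantification Syk was 1.98 times the summed adaptors in replicate 2 and 3.49 times in replicate 1. On that scale Fcer1g was 14.1 times Tyrobp in replicate 2 and 7.41 times in replicate 1, and 9.33 times the summed activating receptors in replicate 2 and 18.7 times in replicate 1. The direction of these ratios was the same by both quantifications, and their size was not. These are ratios of chromatin RNA per length and not of protein chains.

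The TREMs differed widely, with Trem2 in the middle of the members and Trem1 the lowest. Trem2, a receptor for lipids and lipoproteins (chr17:48346401-48354147, plus strand), had 18.8 TPM in replicate 2 and 12.4 TPM in replicate 1, or 840 and 480 counts, close to the level of its adaptor Tyrobp (1.33 times in replicate 2 and 1.29 times in replicate 1). Trem1, which amplifies inflammatory signals in neutrophils and monocytes (chr17:48232768-48246924, plus strand), had 2 counts in each library (exact 95% Poisson interval 0.242 to 7.22), or 0.02 TPM. That is under the floor of 3 counts, so a level of Trem1 could not be set at this depth; by the second quantification, replicate 2 held 10 counts of it and replicate 1 held 11.

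The second quantification, made by the authors from the reads and a transcript index, did not place all the genes at the same heights. Its mean TPM ran from 0.937 times that of the first quantification for Syk to 4.26 times for Trem1. Summed over each gene's transcripts, it put 9 of the 10 members at 1 TPM or more in both libraries, with Fcgr1 at 4.14 TPM in replicate 2 and 1.19 TPM in replicate 1, and Fcgr4 at 5.90 TPM in replicate 2 and 1.0096 TPM in replicate 1. Fcer1g stood out, with 278 TPM in replicate 2 and 104 TPM in replicate 1, a mean 2.75 times that of the first quantification and above Fcgr2b, which had 168 and 55.2 TPM. Of the 7 expressed members, 1 was at least 2-fold higher by the second quantification, against 23.4% of expressed protein-coding genes, whose median ratio was 1.45. Over all 10 members the count was 3, with Fcgr4 at 2.38 times and Trem1, under the floor of 3 counts, added. Syk was the only expressed member with a lower mean by the second quantification, at 0.937 times the first.

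The libraries can be compared for each gene, although both belong to the same group. TPM was higher in replicate 2 for 9 of the 10 members and equal for Trem1, but it was also higher for the median expressed protein-coding gene, 1.73-fold. Protein-coding genes as a whole held 25% of TPM in replicate 2 and 14.0% in replicate 1. The comparison was therefore made on expected counts scaled by the trimmed mean of M-values (TMM), in genes whose counts summed to at least 20, which leaves 9 members. On this scale 3 members were at least 2-fold higher in replicate 2, where 8.96% of all 14442 genes were, and no member was at least 2-fold lower, where 4.89% were. With 1 library on each side these folds describe the 2 libraries and carry counting error only.

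By TMM scaling of the first quantification, the 4 highest ratios belonged to the 4 members on chromosome 1. Fcgr4 had a log2 ratio of replicate 2 over replicate 1 of 1.31 (95% counting interval 0.54 to 2.26), a 2.49-fold difference. Fcgr3, with 367 counts in replicate 2 and 88 in replicate 1, had a log2 ratio of 1.03 (0.69 to 1.39). Fcer1g, with 1225 counts in replicate 2 and 295 in replicate 1, had a log2 ratio of 1.03 (0.84 to 1.22). Fcgr2b, with 5933 counts in replicate 2 and 1732 in replicate 1, had a log2 ratio of 0.75 (0.67 to 0.83). These genes lie within 276 kb, and all 4 were above the interquartile range of the genes compared, which ran from -0.38 to 0.50. The intervals of Fcgr4, Fcgr3 and Fcer1g reach below 1, so their place past 2-fold is within counting error.

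The other 5 members, on as many chromosomes, had log2 ratios between -0.55 and 0.10. Fcgr1 on chromosome 3 had a ratio of 0.10 (-0.38 to 0.61), which lies inside that range. Syk, with 67961 counts in replicate 2 and 48712 in replicate 1, had a ratio of -0.55 (-0.56 to -0.53). Tyrobp had a ratio of -0.36 (-0.73 to 0.03), Sirpa of -0.27 (-0.30 to -0.24) and Trem2 of -0.22 (-0.38 to -0.05). The sign of these 4 stayed negative with DESeq2 size factors and with TMM over protein-coding genes only. By library size alone, which moves every gene alike and the median of all genes by 0.56, the ratios were 0.01 for Syk, 0.20 for Tyrobp, 0.29 for Sirpa and 0.34 for Trem2. By the second quantification Trem2 had a ratio of 0.24, Fcer1g one of 0.25 and Fcgr1 one of 0.47. Fcer1g was then not past 2-fold and lay below Fcgr1, so the members on chromosome 1 were not the 4 highest by that quantification.

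**Figure D2:**
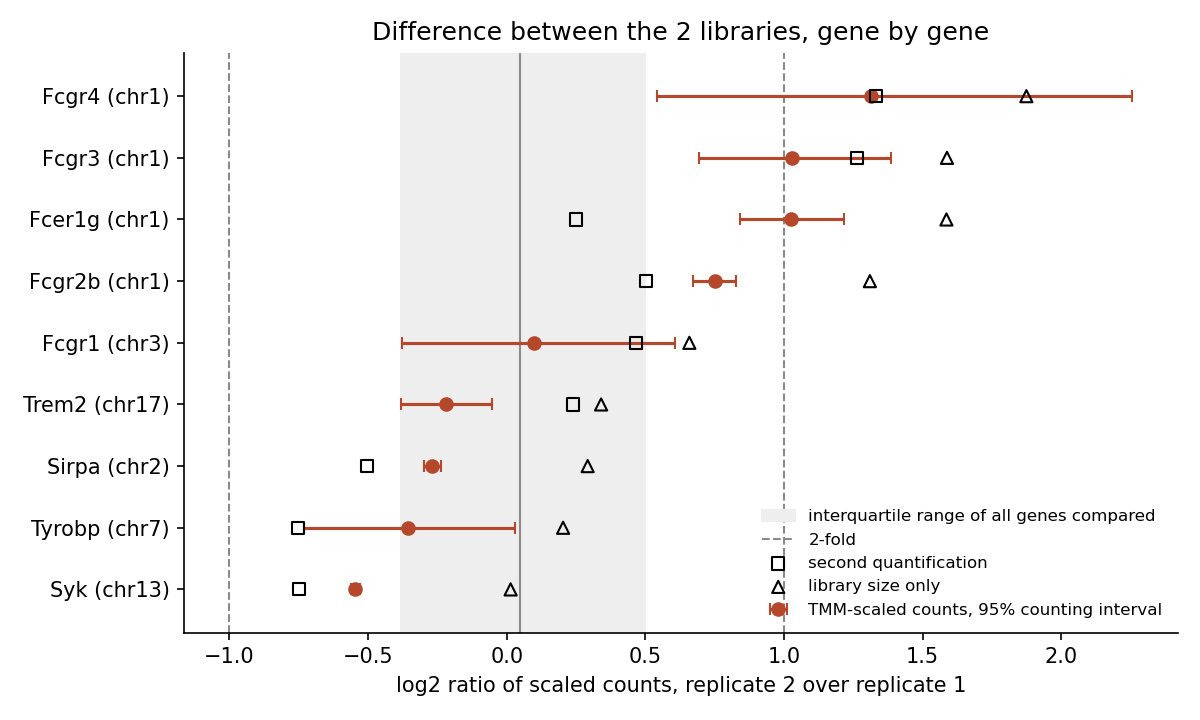
Log2 ratio of scaled counts, replicate 2 over replicate 1, for the 9 genes whose counts sum to at least 20 (red, with the 95% counting interval), and the same by the second quantification (squares) and by library size alone (triangles); the grey band is the interquartile range of all genes compared and the dashed lines mark 2-fold. The 4 genes of chromosome 1 lie highest, at 0.75 to 1.31, and the 5 others lie at -0.55 to 0.10 by TMM scaling.

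The region around these 4 genes was looked at after their values were seen. Within 100 kb of either end, 14 other genes passed the count minimum of 20, and their log2 ratios ran from -1.03 to 1.08 with a median of -0.11. Of these, 3 were at least 2-fold higher in replicate 2 and 1 was at least 2-fold lower, where 8.96% and 4.89% of all genes were. The highest was Gm9929, at 1.08 from 75 counts in replicate 2 and 17 in replicate 1. The lower gene, Nr1i3, had 17 counts in each library, so its ratio of -1.03 comes from the TMM sizes alone. Adamts4, which encodes a secreted protease, and B4galt3, a galactosyltransferase, had ratios of 1.05 and 1.06. The higher values in replicate 2 were shared by some but not all genes of the region. The part that RNA input or any other difference between the libraries has in this was not tested.

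**Figure D3:**
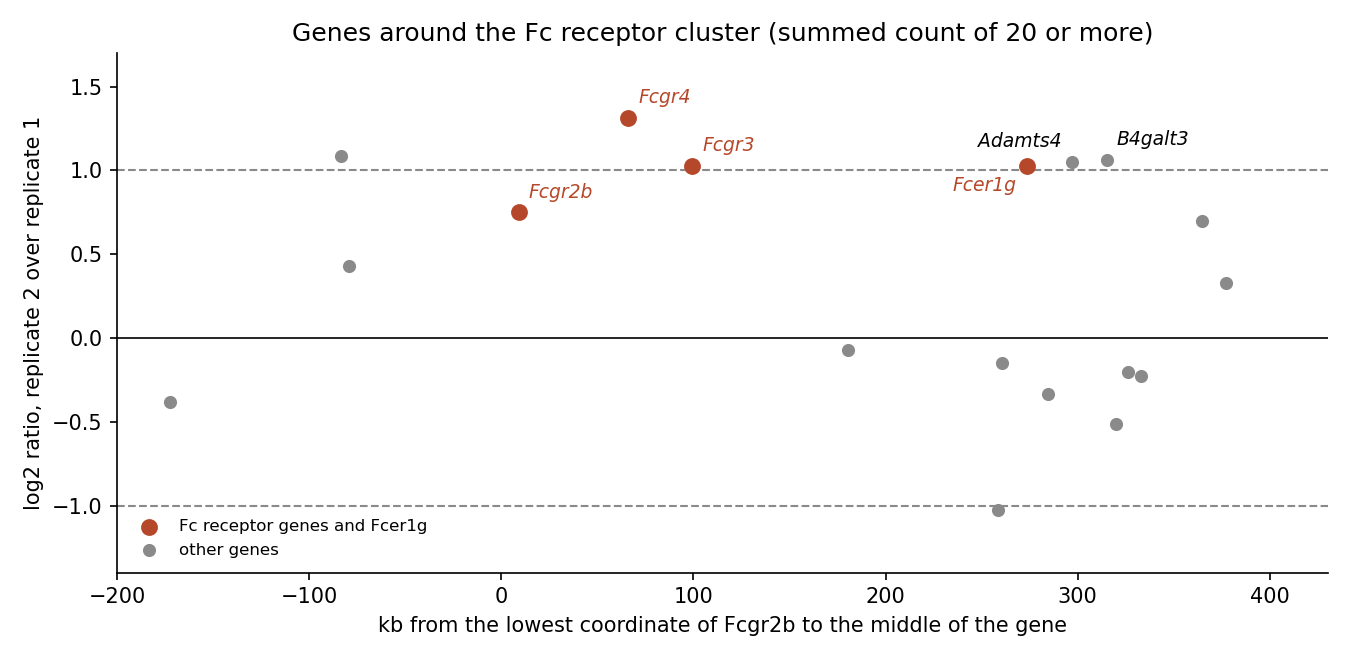
Log2 ratio, replicate 2 over replicate 1, of each gene whose counts sum to at least 20 against its distance in kb from the lowest coordinate of Fcgr2b. The 3 Fc receptor genes and Fcer1g (red) lie between 0.75 and 1.31, and the 14 other genes (grey) lie between -1.03 and 1.08.

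Members with an annotated retained intron transcript had about as much of their TPM on it as other expressed genes. A retained intron transcript is an annotated isoform in which an intron stays in the RNA, and its share is given as a percent of the TPM of all transcripts of the gene. Such a transcript is annotated for 6 of the 10 members, and the median share over them was 46.7%, beside 45.9% over the 5233 expressed protein-coding genes that have such a transcript. The median was thus close to that of a typical gene in this chromatin RNA. Fcgr1, Fcgr4, Tyrobp and Trem1 have no annotated retained intron transcript, so nothing can be said of theirs.

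Fcgr2b had the smallest coding share of the members. Its 4 protein-coding transcripts held 12.3 ± 2.32% of its TPM (SD, n = 2), where the median expressed protein-coding gene had 52.2%. The retained intron transcripts Fcgr2b-205 and Fcgr2b-207 held 56.7 and 22.1 TPM in replicate 2 and 17.2 and 6.90 TPM in replicate 1, together 52.1 ± 3.66%. The processed transcript Fcgr2b-206, which has no annotated coding sequence, held 45.2 TPM in replicate 2 and 19.4 TPM in replicate 1, or 35.6 ± 5.98%. In TPM, all 3 noncoding transcripts were therefore above each coding transcript in both libraries. By expected counts only Fcgr2b-205 was. Fcgr2b-207 had 161 counts in replicate 2 and 45.0 in replicate 1, below the coding transcript Fcgr2b-201 with 854 and 248. Fcgr2b-206, with 813 and 320 counts, was below Fcgr2b-201 in replicate 2 and above it in replicate 1. The main coding transcripts come in forms of 340 and 293 residues (a further one of 312 residues, Fcgr2b-203, had 0.07 TPM in replicate 2 and 0 TPM in replicate 1), the longer with the cytoplasmic insert typical of B cells and the shorter typical of macrophages. The 293-residue form held 59.0% of the TPM of both forms in replicate 2 and 51.1% in replicate 1 by the first quantification, but 41.0% in replicate 2 and 27.5% in replicate 1 by the second, so which form was more abundant depends on the quantification.

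The other members with retained intron transcripts spread around the typical gene. Sirpa-212 held 180 TPM in replicate 2 and 144 TPM in replicate 1, or 48.2 ± 4.89% of Sirpa. Syk-204 held 246 TPM in replicate 2 and 157 TPM in replicate 1, and with Syk-205 made up 45.1 ± 5.08% of Syk. Fcgr3-203 held 7.25 TPM in replicate 2 and 1.15 TPM in replicate 1, and its share was 67.6% in replicate 2 and 41.8% in replicate 1. By the second quantification the libraries stood the other way round, at 41.0% in replicate 2 and 56.3% in replicate 1, so no difference between the libraries can be read for Fcgr3. Fcer1g-202 held 24.8% of Fcer1g in replicate 2 and 42.6% in replicate 1, and 34.9% in replicate 2 and 39.6% in replicate 1 by the second quantification. Trem2-203 held 15.4 ± 3.58% of Trem2, the smallest share by the first quantification, but 42.9 ± 20.5% by the second. By the second it was 57.5% in replicate 2, above Fcer1g and Sirpa, and 28.4% in replicate 1, below both.

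Shares of TPM weight a short transcript more than shares of reads do. Of the expected counts, the retained intron transcripts took 10.5% in Sirpa, 13.6% in Fcer1g and 25% in Syk, but 51.4% in Trem2, 53.7% in Fcgr3 and 62.9% in Fcgr2b. Fcgr2b was above 50% as a mean of the libraries on either measure and by the second quantification (60.5% of TPM). Its replicate 1 alone was at 49.6% of TPM by the first. The mean of Fcgr3 was likewise above 50% by the first quantification, at 54.7% of TPM and 53.7% of counts. By the second it was 48.6% of TPM. Replicate 1 of Fcgr3 was at 41.8% of TPM and 40.6% of counts by the first. Among coding transcripts, Sirpa-204 had 53.0 TPM in replicate 2 and 9.90 TPM in replicate 1, while Sirpa-203 had 45.4 and 46.5 TPM and Syk-203 had 124 TPM in both. Tyrobp-201, which encodes the 114-residue chain with the ITAM printed above, had 8.55 TPM in replicate 2 and 3.42 TPM in replicate 1. Tyrobp-202, also annotated as protein-coding, had 5.29 TPM in replicate 2 and 5.71 TPM in replicate 1.

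**Figure D4:**
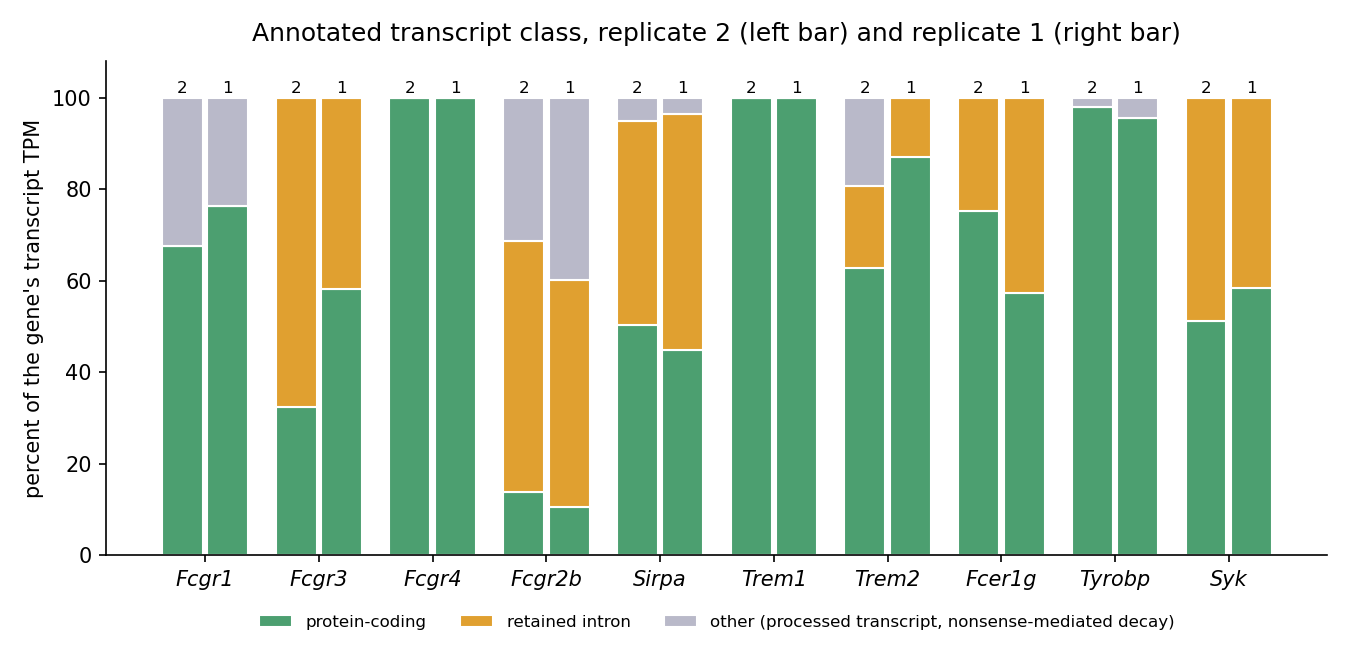
Percent of the TPM of each gene on protein-coding (green), retained intron (orange) and other (grey) transcripts, with replicate 2 as the left bar and replicate 1 as the right bar of each pair. Fcgr2b has the smallest protein-coding share of the 10 genes, and Fcgr4 and Trem1 have protein-coding transcripts only in the annotation.

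Near-identical sequence limits how reads of Fcgr2b and Fcgr3 can be told apart. Of the 50-base words in the transcripts of Fcgr3, 9.58% also occurred in Fcgr2b and in no other gene. Of the words of Fcgr2b, 6.95% (395 words) occurred in 146 other genes. Fcgr3 held the most of these, 166, so the greater part of the shared words of Fcgr2b was not in Fcgr3. The other 8 members shared no such word with any gene. How the quantifications placed reads of such stretches is not given, so the values of both genes, and of Fcgr3 as the less abundant one, are uncertain. Another 4 annotated genes overlap a member, among them the antisense gene Gm38204 over the start of Fcgr2b, and none had more than 2 counts in a library; whether the counting used strand is not given.

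The pathway around the members was described with 5 gene lists. Their levels are those of the first quantification unless the second is named. Of 13 other Fc receptors and related proteins, 2 reached 1 TPM in both libraries and the median was 0.075 TPM. By the second quantification 3 reached it, and Fcer2a had a mean of 7.87 TPM, against 0.26 TPM by the first. Trim21, the cytosolic antibody receptor, had 55.5 TPM in replicate 2 and 21.9 TPM in replicate 1. Fcgrt, the neonatal Fc receptor, had 1.41 TPM in replicate 2 and 1.23 TPM in replicate 1. Fcer1a and Ms4a2, which join Fcer1g in the IgE receptor of mast cells, were listed at 0 in both libraries, as were Fcamr and Fcmr. Fcrl5, an Fc receptor-like gene, had 1.16 TPM in replicate 2 and 0.14 TPM in replicate 1, from 88 and 10 counts. It was the 1 gene past 2-fold (log2 ratio 2.05) among the 5 of this list at the count minimum.

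Of 22 other receptors and adaptors that signal through an ITAM or pair with an ITAM adaptor, 7 reached the minimum, and the median was 0.495 TPM. The highest were Clec4d and Clec4e, C-type lectins that pair with Fcer1g. Clec4d had 277 TPM in replicate 2 and 137 TPM in replicate 1. Clec4e, also called Mincle, had 197 TPM in replicate 2 and 89.3 TPM in replicate 1. Each was thus above Fcer1g itself in its library by the first quantification. Cd300c2, a CD300-family receptor, followed with 9.55 TPM in replicate 2 and 5.34 TPM in replicate 1. Of the 14 genes of the list at the count minimum, 3 were past 2-fold, all higher in replicate 2, where 8.96% of all genes were. They were Clec4n, Klrk1 and Cd247, with log2 ratios of 1.482, 1.476 and 1.013. Klrk1 rested on 25 counts in replicate 2 and 4 in replicate 1, and Cd247 on 18 and 4. Both were under 1 TPM in each library. Trem3, next to Trem1 on chromosome 17, was listed at 0 in both libraries, as were Sirpb1a and Sirpb1c, relatives of Sirpa that pair with Tyrobp.

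Downstream of the receptors nearly every gene was present. Of 29 kinases and adaptors of the Syk pathway, 28 reached the minimum, with a median of 29.8 TPM, and the Src-family kinase Fgr did not. Fyb, an adaptor for integrin and actin signalling, had 529 TPM in replicate 2 and 367 TPM in replicate 1. Prkcd, the protein kinase C that acts between Syk and Card9, had 419 TPM in replicate 2 and 345 TPM in replicate 1. Pik3r5, a regulatory subunit of phosphoinositide kinase, had 341 TPM in replicate 2 and 223 TPM in replicate 1. By the second quantification Lcp2 was the highest of the list, with a mean of 634 TPM against 171 TPM by the first. Src had a mean of 192 TPM by the second and 19.8 TPM by the first. Vav2, an exchange factor, and Plcg1, a phospholipase, were the 2 genes at least 2-fold lower in replicate 2, where 4.89% of all genes were. Their counts were equal in the libraries, 731 for Vav2 and 178 for Plcg1 in each. The log2 ratio of -1.03 of both thus comes from the TMM sizes alone. TPM in replicate 2 and replicate 1 was 5.52 and 6.07 for Vav2 and 2.75 and 3.64 for Plcg1.

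All 15 inhibitory phosphatases and adaptors reached the minimum, with a median of 13.7 TPM. Ptprc, the CD45 phosphatase that sets the activity of Src-family kinases, had 767 TPM in replicate 2 and 175 TPM in replicate 1 and was the 1 gene past 2-fold (log2 ratio 1.12). Ptprj, a receptor phosphatase, had 111 TPM in replicate 2 and 65.0 TPM in replicate 1, and Cbl, the ubiquitin ligase that marks Syk for degradation, had 51.5 TPM in replicate 2 and 34.2 TPM in replicate 1. Over all transcripts, the phosphatases that the ITIMs recruit were lower in TPM than the receptors themselves. They are named for that role, after their values were seen. Inpp5d, the lipid phosphatase recruited by Fcgr2b, had 14.8 TPM in replicate 2 and 12.6 TPM in replicate 1. The coding transcripts of Fcgr2b alone held 20.0 TPM in replicate 2 and 5.17 TPM in replicate 1. In replicate 1 Inpp5d, over all its transcripts, was thus above the coding transcripts of Fcgr2b. Ptpn6 and Ptpn11, recruited by Sirpa, had 6.44 and 12.01 TPM in replicate 2 and 3.48 and 7.05 TPM in replicate 1.

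Of 6 ligands of Sirpa and the TREMs, 3 reached the minimum. Cd47, the ligand of Sirpa, had 48.1 TPM in replicate 2 and 23.8 TPM in replicate 1. Apoe, a ligand of Trem2, had 35.05 TPM in replicate 2 and 35.39 TPM in replicate 1, from 803 and 818 counts. Its log2 ratio of scaled counts was -1.05, nearly all of it from the TMM sizes. Among the 3 genes of the list at the count minimum it was the 1 at least 2-fold lower in replicate 2. Hmgb1, a nuclear protein that can act outside the cell when released, had 5.32 TPM in replicate 2 and 2.19 TPM in replicate 1. Pglyrp1 and Sftpd were listed at 0 in both libraries by the first quantification. By the second, Pglyrp1 had a mean of 1.44 TPM and Sftpd one of 0.127 TPM.

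**Figure D5:**
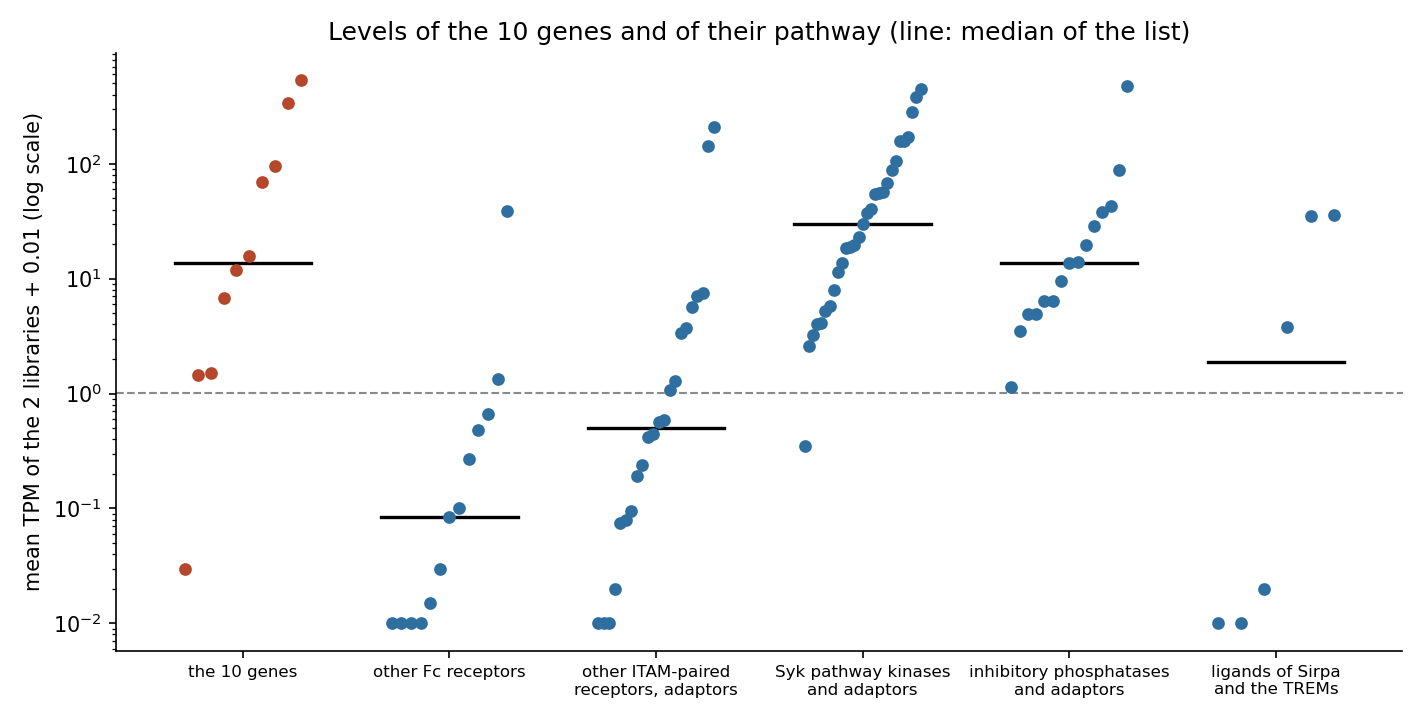
Mean TPM of the 2 libraries plus 0.01 (log axis) for each of the 10 genes (red) and each gene of the 5 pathway lists (blue), with the median of each list as a black line and 1 TPM as a dashed line. The medians are 13.7 TPM for the 10 genes, 0.075 TPM for other Fc receptors, 0.495 TPM for other ITAM-paired receptors, 29.8 TPM for the Syk pathway, 13.7 TPM for inhibitory phosphatases and 1.88 TPM for the ligands.

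Several members are also expressed by other blood cells, so markers of those cells are given beside them. All 12 macrophage markers reached 1 TPM in both libraries, with a sum of 2037 TPM in replicate 2 and 1021 TPM in replicate 1. Of 12 markers of neutrophils and their progenitors 1 did, the receptor gene Csf3r, and the sum was 26.3 TPM in replicate 2 and 18.5 TPM in replicate 1, with Ly6g, Mpo, Elane, Cxcr2 and Retnlg listed at 0 in both. None of 10 mast cell and basophil markers did (sum 2.81 TPM in replicate 2 and 1.28 TPM in replicate 1), and Cpa3, Mcpt4, Mcpt8, Tpsb2, Cma1, Mrgprb2 and Prss34 were listed at 0. None of 10 NK cell markers did (sum 0.08 and 0 TPM), with 8 listed at 0 in both, and none of 12 B cell markers did (sum 1.5 and 0.69 TPM), with Pax5, Ighd and Blk among those listed at 0. The second quantification gave the markers of other cells higher values. By it, 2 of 12 neutrophil, 1 of 10 mast cell, 1 of 10 NK cell and 4 of 12 B cell markers reached 1 TPM in both libraries, and Cxcr2, listed at 0 by the first, had a mean of 3.10 TPM. The sums were 43.6 TPM in replicate 2 and 25.5 TPM in replicate 1 for neutrophil markers, 5.89 and 1.95 TPM for mast cell markers, 6.49 and 3.28 TPM for NK cell markers and 15.7 and 6.91 TPM for B cell markers, beside 2576 and 1156 TPM for macrophage markers. In bulk RNA, fewer cells that express a gene and less of its RNA in each cell cannot be told apart.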

How the data were processed

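Total RNA of the chromatin fraction was sequenced in 2 libraries of 1 group, which held 29638814 (replicate 2) and 21453617 (replicate 1) expected counts on annotated genes. Per the text files deposited beside the tables, the authors derived the gene and transcript tables from an alignment to the transcriptome of mm10 with GENCODE M21; these deposited tables hold expected (estimated) counts and TPM, and their FPKM was not used. The authors also deposited a second transcript table of estimated counts and TPM made directly from the reads; it is summed by gene here and called the second quantification. The sources used here name no aligner, quantifier or version and do not give the use of strand. Rows without an annotated gene, 0.277% of counts in replicate 2 and 0.409% in replicate 1, were left out.

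Symbols were mapped to gene identifiers through the second table. Expected counts were rounded; log2 ratios used a prior of 0.5 counts and TMM sizes (edgeR 4.0.16, R 4.3.3), with exact binomial intervals of the summed count. Alternatives were size factors of DESeq2 1.42.0, library size, the second quantification, other minima and either library alone. Motifs and shared words were searched with Python 3.11.15 and Biopython 1.88. The members and gene lists were chosen with earlier results of these data known. By rule, the text names all members, and from each list the 3 genes highest by mean TPM and those past 2-fold. Other named genes were chosen after their values were seen. The transcripts named in the results are a selection. Leading ones left out there include Fcgr1-201 (72.0% of the TPM of its gene), Trem2-201 (53.4%) and Fcer1g-201 (48.9%).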

Additional observations from a re-analysis of the deposited data

How the results depend on the processing

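At the minimum of 1 TPM, 7 members counted as expressed; the count was 9 by the second quantification, by TPM over protein-coding genes only and at 0.5 TPM, and 6 at 5 TPM. Leaving out a library gave 7 to 9. At 1 TPM in both libraries the share was 17.4% of all annotated genes and 34.7% of protein-coding genes. Shares at the other settings are not given here, so the rise from 7 to 9 is no result about the members. At 5 TPM the counts of list genes fell from 2 to 1 for other Fc receptors and from 7 to 4 for other ITAM-paired receptors. They fell from 28 to 23 for the Syk pathway, from 15 to 10 for inhibitory phosphatases and from 3 to 2 for ligands. The count of members at least 2-fold higher in replicate 2 was 3 by TMM over all genes, TMM over protein-coding genes, DESeq2 size factors and without the count filter, 4 by library size alone and 2 by the second quantification. The count at least 2-fold lower was 0, but 1 by the second quantification and 1 without the filter on low counts. That member was Trem1. By the second quantification it had 10 counts in replicate 2 and 11 in replicate 1, and by the first 2 in each. Its log2 ratios of -1.32 and -1.03 thus come nearly all from the TMM sizes. By TMM over all genes, 8.96% of the genes compared were at least 2-fold higher and 4.89% at least 2-fold lower. Shares at the other settings are not given here, and library size alone moved the median of all genes by 0.56. The median retained intron share over members was 46.7% of TPM, 38.2% of expected counts and 43.5% by the second quantification, and ran from 42.2% to 46.7% with either library left out. No paired analysis was possible because the series has 1 group. Depth limits Fcgr1, Fcgr4 and Trem1, whose counts are the lowest of the members. The cause of these shifts was not tested.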
